A study of Mus musculus with 6 samples.

Results

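The SLC25 family comprises the carriers that move metabolites across the inner mitochondrial membrane. Its members were taken as the protein-coding mouse genes whose symbol is Slc25a followed by a number, and 47 of the 51789 genes in the deposited table met this rule. RNA was measured in 6 libraries from mouse bone marrow neutrophils that had been selected with beads against the surface protein Ly6G. Tags from the 3′ end of polyadenylated transcripts were sequenced with the Lexogen QuantSeq kit, so that a transcript yields about 1 tag whatever its length. The libraries form 2 groups of 3, labelled WT (control) and KO (knockout) for Snph, the gene of syntaphilin, which anchors mitochondria to microtubules. The sources used here give neither strain, age nor sex of the animals, and neither the deleted part of Snph nor any treatment.

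Most SLC25 proteins sit in the inner membrane and exchange one solute for another: ADP for ATP, phosphate for hydroxide, dicarboxylates, amino acids, cofactors or iron. The inner membrane is otherwise closed to these compounds, so the carriers connect metabolism of the cytosol with that of the matrix. Mature neutrophils draw most of their ATP from glycolysis and hold few mitochondria, which they use in part for redox balance, calcium handling and chemotactic signalling.

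Total counts ran from 7018388 to 9664381 per library. Snph itself had no count in WT 1, 2 or 3 but 5, 2 and 8 counts in KO 1, 2 and 3, the opposite of what the labels would give. Without the deleted part known these counts do not settle the labels, so each direction below compares the libraries labelled KO with those labelled WT. All 11 neutrophil markers were detected, with a summed level of 279000 to 299100 CPM in the WT-labelled libraries, against 317800 to 338900 CPM in those labelled KO (CPM, counts per 1e6, scaled by TMM factors). Markers of macrophages differed between the groups, with 11 of 11 lower in the KO-labelled libraries by edgeR's quasi-likelihood test and sums of 1211 to 1295 against 548.5 to 684 CPM. Of 5 tested platelet markers 3 were lower (sums of 132 to 152 against 61.4 to 90.9 CPM). Of 4 tested eosinophil and basophil markers 1, Ccr3, was lower by edgeR (adjusted p = 0.0183) and 2, Ccr3 and Mcpt8, by DESeq2, with sums of 46.6 to 64.8 against 28.7 to 41.2 CPM. The other tested markers of this list, Siglecf (log2 0.245) and Prg2 (log2 0.01), overlapped between the groups and were not lower. Higher in the KO-labelled libraries were 2 of 11 neutrophil markers (S100a8 and Retnlg) and 1 of 7 tested B and plasma cell markers (Jchain, adjusted p = 0.0361 by edgeR and 0.110 by DESeq2). Of these 7, 4 lay above 0 and 3 below. Those below, Cd79b (log2 -0.761), Cd79a (-0.42) and Ms4a1 (-0.298), were not called, although all KO-labelled libraries were lower for Cd79b. Erythroid markers, of interest for the iron and glycine carriers, had 0 of 11 called and sums of 1301 to 2142 against 1413 to 2801 CPM. None of the macrophage, platelet or erythroid markers was at 0 in every library. In bulk samples, fewer cells of a type and less RNA per cell cannot be told apart. Whether each library came from its own animal is not stated, and the p-values reflect only how far these libraries differ from each other, which may be technical.

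As a whole the carrier family was a small and uneven part of the neutrophil transcriptome. Its 47 genes took 0.0995%, 0.102% and 0.101% of all counts in WT 1, 2 and 3, against 0.0955%, 0.0944% and 0.0967% in KO 1, 2 and 3. Every KO-labelled library lay below every WT-labelled one on this scale. The means were 0.101% ± 0.00109 and 0.0955% ± 0.00115 (SD, n = 3), and an exact two-sided permutation test gave p = 0.1, the smallest p that 3 against 3 libraries allow. The gap was narrower, and its direction the same, when S100a8 and S100a9 were left out of the total (0.130% ± 0.00194 against 0.126% ± 0.00105; SD, n = 3; exact permutation p = 0.1). These 2 genes, the subunits of calprotectin, took 21.8% to 22.8% of counts in the WT-labelled and 23.4% to 24.6% in the KO-labelled libraries. With TMM scaling, which sets most genes level between libraries, the direction turned: the summed family was at 975 ± 24.4 CPM for WT and 993 ± 3.93 CPM for KO (SD, n = 3; exact permutation p = 0.4).

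**Figure D1:**
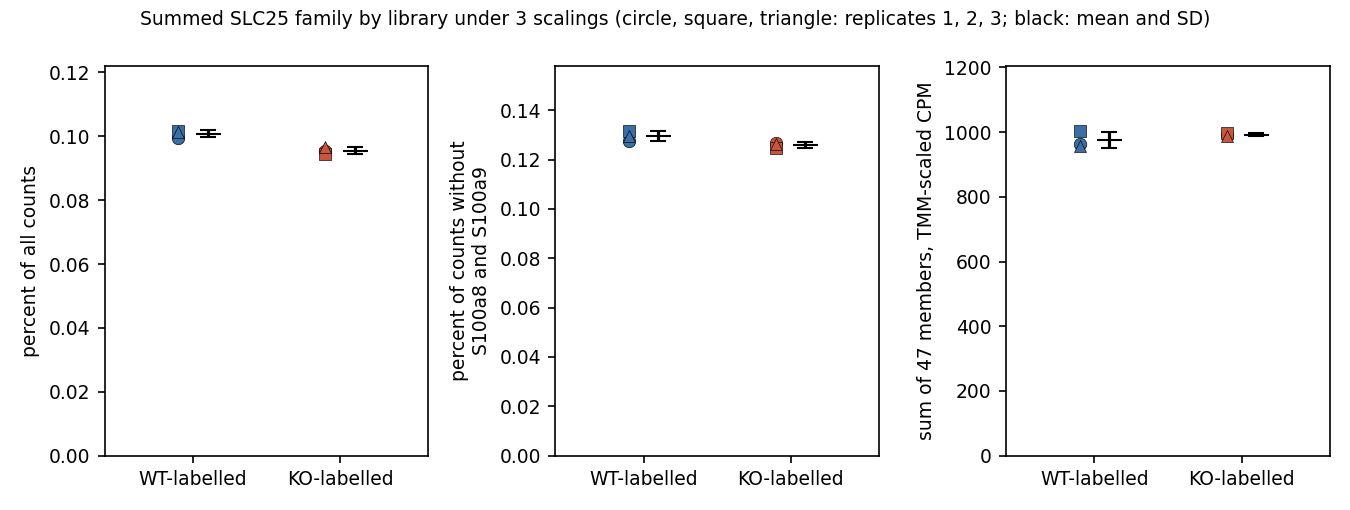
Summed level of the 47 SLC25 genes in each library (points, by replicate) as percent of all counts, as percent of counts without S100a8 and S100a9, and as TMM-scaled CPM, with the mean and SD of each labelled group in black. The KO-labelled libraries lie below the WT-labelled ones as a share of counts (0.0944% to 0.0967% against 0.0995% to 0.102%) and among them as TMM-scaled CPM.

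A few carriers held most of the family's transcripts. The mean over 6 libraries was at least 100 CPM for 3 members, 10 to 100 CPM for 12, 1 to 10 CPM for 16 and above 0 but under 1 CPM for 11, while 5 had no count in any library. The leading 3, Slc25a37, Slc25a3 and Slc25a11, made up 42.7% of the summed level and the leading 8 made up 75.6%. Slc25a37 stood above Slc25a3 in 6 of 6 libraries with no overlap of their ranges. Slc25a3 and Slc25a11 overlapped, and both lay above Slc25a24, although Slc25a11 only just did so (104 CPM in WT 3, against 92.7 CPM for Slc25a24 in WT 2). Slc25a24 and Slc25a45 were each the higher of the pair in 3 libraries and do not differ beyond their spread. Below them, Slc25a51, Slc25a5, Slc25a44, Slc25a39, Slc25a12 and Slc25a20 overlapped each with the next, and a clear step followed from Slc25a20 to Slc25a28. The genes at 0 were Slc25a18, Slc25a34, Slc25a41, Slc25a48 and Slc25a54. A count of 0 in all 6 libraries allows up to 0.0617 CPM, which is 3 counts of the pooled total and covers counting error only. A further 12 genes had between 1 and 52 counts in all and were not tested: Slc25a32, Slc25a27, Slc25a35, Slc25a13, Slc25a26, Slc25a47, Slc25a43, Slc25a42, Slc25a2, Slc25a21, Slc25a31 and Slc25a30, in falling order of their mean.

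**Figure D2:**
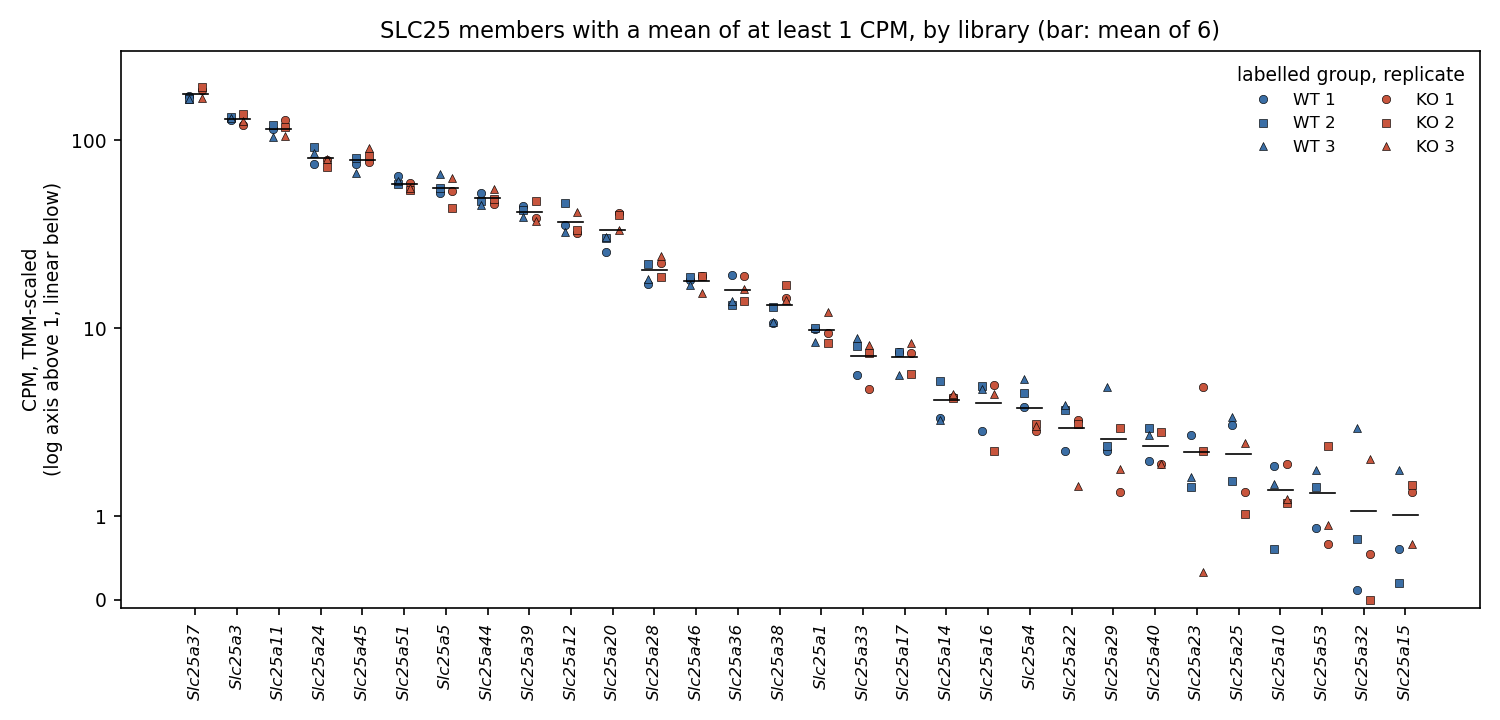
TMM-scaled CPM (log axis above 1 CPM, linear below) of the SLC25 genes reported here whose mean was 1 CPM or more, 1 point per library, WT-labelled in blue and KO-labelled in red; the bar is the mean of 6 libraries. Slc25a37 leads at 176 CPM, and the libraries of both groups lie close together for the abundant genes and scatter below about 5 CPM.

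No carrier passed the test between the groups. After the filter on low counts 30 of the 47 genes were tested, and edgeR's quasi-likelihood test called 0 higher and 0 lower (threshold of 0.05 on p adjusted by Benjamini-Hochberg over 10397 genes). The same threshold was passed by 1.03% of all tested genes, 0.24% higher and 0.789% lower in the KO-labelled libraries. At an unadjusted p under 0.05 there were 2 members, both higher, against 11.4% of all tested genes (5.03% higher and 6.35% lower). DESeq2, which called 1.67% of all genes, and limma-voom called 0 members as well, with 1 and 2 at an unadjusted p under 0.05. The median log2 fold change of the 30 was -0.02, beside 0.01 for all tested genes, and 14 lay above 0 and 16 below. Libraries of the groups did not overlap for 3 of the 30 members, 2 higher and 1 lower, against 16.8% of all tested genes.

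The width of the intervals says how much change these libraries could have missed. Among the 30 tested genes, the 95% interval of the difference lay wholly within 1.25-fold in either direction for 6, within 1.5-fold for 15 and within 2-fold for 21. The 15 members with a mean of at least 10 CPM had a median absolute log2 fold change of 0.11, the same as the 0.11 of the 5935 tested genes at this level, and a median SE of 0.12 against 0.13. For rare members such as Slc25a15, the mitochondrial ornithine carrier (46 counts in all), the interval ran from 0.486-fold to 3.95-fold. Any difference within that range remains possible at this depth.

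**Figure D3:**
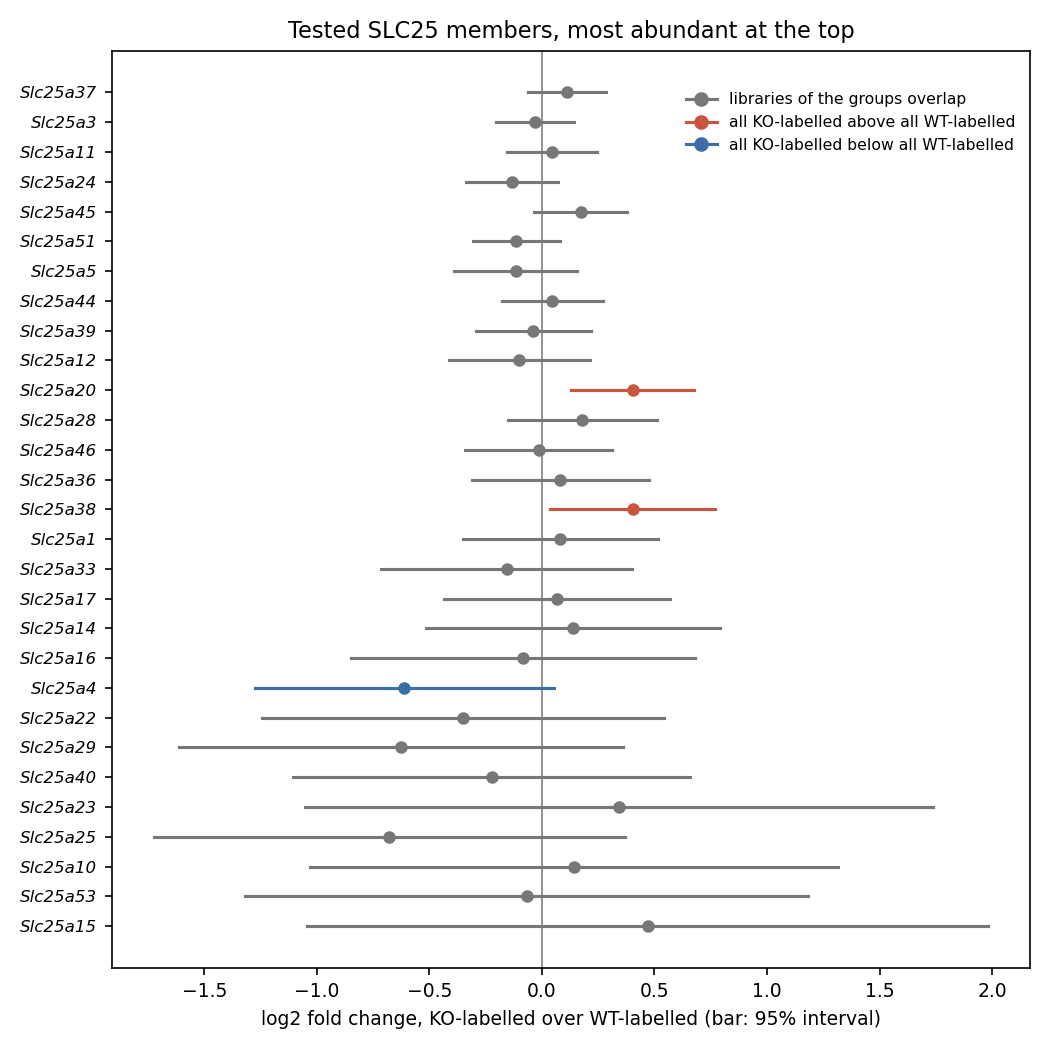
Log2 fold change of the KO-labelled over the WT-labelled libraries with its 95% interval (edgeR) for the tested SLC25 genes reported here, from the most abundant at the top to the least abundant. Intervals widen downward; Slc25a20 and Slc25a38 (red) are the genes whose KO-labelled libraries all lie above, and Slc25a4 (blue) the gene whose KO-labelled libraries all lie below, and none passed the adjusted threshold.

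The mitoferrins, which bring iron into the matrix for haem and iron-sulphur cluster synthesis, contributed 19.9% of the family's level. Mitoferrin 1 (Slc25a37, ENSMUSG00000034248, chromosome 14, 69241848 to 69285112, minus strand, mm10) is best known from developing red cells. It had the highest mean of the genes named Slc25a in these libraries and lay above 93.0% of all tested genes. Its level was 173, 166 and 167 CPM in WT 1, 2 and 3, against 185, 193 and 169 CPM in KO 1, 2 and 3. The WT-labelled libraries were nearly level and KO 3 fell within their range, so the groups overlap. The log2 fold change was 0.11 (SE 0.08, adjusted p = 0.668 by edgeR), and the interval ran from 0.959-fold to 1.22-fold. Mitoferrin 2 (Slc25a28), the form found in most tissues, was at 17.3, 21.9 and 18.3 CPM in WT 1, 2 and 3 and at 22.1, 18.7 and 24.3 CPM in KO 1, 2 and 3. Its groups overlap too (log2 0.18, SE 0.16, adjusted p = 0.743).

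Mitoferrin 1 therefore outnumbered mitoferrin 2 by 8.48 to 1 over all libraries. The ratio was 9.99, 7.61 and 9.10 in WT 1, 2 and 3, against 8.38, 10.3 and 6.95 in KO 1, 2 and 3. The log2 ratio was 3.14 ± 0.20 in the WT-labelled and 3.07 ± 0.29 in the KO-labelled libraries (SD, n = 3; exact two-sided permutation p = 0.8). The sums of the erythroid markers given above overlapped between the groups. The part of erythroid cells in the level of Slc25a37 was not tested. A predicted gene, Gm16867, shares 342 identical bases with the 3′ end of Slc25a37 and had 0 counts in every library.

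Carriers of nucleotides and phosphate formed the largest role group, with 10 genes and 30.2% of the family's level. Of these, 8 were tested, 0 were called in either direction, 2 lay above 0 and 6 below, and the median log2 fold change was -0.12. Slc25a3, the phosphate carrier that feeds ATP synthase, was at 128, 133 and 132 CPM in WT 1, 2 and 3 and at 121, 137 and 126 CPM in KO 1, 2 and 3. It overlapped fully between the groups, with a log2 fold change of -0.03 (SE 0.08, adjusted p = 0.930 by edgeR) and an interval of 0.867-fold to 1.105-fold. The calcium-activated ATP-Mg/phosphate carrier Slc25a24 was at 74.5, 92.7 and 85.3 CPM in WT 1, 2 and 3 and at 78.7, 71.8 and 79.7 CPM in KO 1, 2 and 3. WT 2 was the highest library and WT 1 lay among the KO-labelled ones (log2 -0.13, SE 0.10, adjusted p = 0.673).

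The ADP/ATP translocases export the ATP made in the matrix. Slc25a5 (ANT2) was at 52.5, 55.9 and 66.0 CPM in WT 1, 2 and 3 and at 53.9, 43.5 and 62.7 CPM in KO 1, 2 and 3. Replicate 3 was the highest library in each group and the groups overlap (log2 -0.12, SE 0.13, adjusted p = 0.815 by edgeR). Slc25a4 (ANT1), the form typical of heart and skeletal muscle, was at 3.80, 4.50 and 5.39 CPM in WT 1, 2 and 3 and at 2.83, 3.09 and 3.01 CPM in KO 1, 2 and 3, which rests on 21 to 44 counts per library. All KO-labelled libraries lay below all WT-labelled ones, a pattern seen for 9.32% of tested genes in this direction. The log2 fold change was -0.61 (SE 0.31) and did not pass (adjusted p = 0.490), with an interval of 0.413-fold to 1.04-fold. The summed levels of macrophage, platelet, and eosinophil and basophil markers were lower in the same libraries, as given above. The part of these cells in the level of Slc25a4 was not tested. Slc25a31 (ANT4), the testis form, had 2 counts, both in KO 2.

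Slc25a5 exceeded Slc25a4 by 14.8 to 1 over all libraries. The ratio was 13.8, 12.4 and 12.2 in WT 1, 2 and 3, against 19.0, 14.1 and 20.8 in KO 1, 2 and 3. All 3 KO-labelled ratios were higher, although KO 2 stood only slightly above WT 1. On the log2 scale this was 3.66 ± 0.09 against 4.12 ± 0.30 (SD, n = 3), with an exact two-sided permutation p of 0.1, the smallest that the design allows. Pseudogene copies of Slc25a5 share stretches of 227 to 500 bases with its 3′ end at over 95% identity, and together they had 1 count. Such near-identical copies can take or give reads, so the level of Slc25a5 is uncertain to that extent.

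The remaining genes of this role group were scarcer. Slc25a36 and Slc25a33, the pyrimidine nucleotide carriers, had means of 15.9 and 7.14 CPM and log2 fold changes of 0.08 and -0.16. Slc25a25, a further ATP-Mg/phosphate carrier, was at 3.07, 1.53 and 3.37 CPM in WT 1, 2 and 3 and at 1.35, 1.03 and 2.45 CPM in KO 1, 2 and 3. WT 1 and WT 3 were above all others and WT 2 was not, so the groups overlap (log2 -0.68, SE 0.49, adjusted p = 0.674 by edgeR). Single libraries set its size: the log2 fold change was -1.14 without KO 3 and -0.45 without KO 2. Its exons overlap those of Naif1 on the opposite strand, which leaves its counts uncertain.

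Carboxylate and aspartate-glutamate carriers, which serve the malate-aspartate shuttle and citrate export, held 17.0% of the family's level. Of 8 genes 5 were tested and 0 were called, and their median was 0.05. Slc25a11, which exchanges 2-oxoglutarate for malate, was at 115, 121 and 104 CPM in WT 1, 2 and 3 and at 128, 119 and 105 CPM in KO 1, 2 and 3. The lowest library of each group was replicate 3, and the groups overlap (log2 0.05, SE 0.09, adjusted p = 0.911 by edgeR). With scaling to the total count alone its log2 fold change was -0.06. Exons of Slc25a11 overlap those of Rnf167 on the opposite strand by up to 189 bases, and since the sources used here do not give the strand setting of the counting, reads of these 2 genes cannot be told apart there.

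Of the aspartate-glutamate carriers, Slc25a12 (aralar) was the transcript present, and Slc25a13 (citrin), the form of liver, was near the limit of detection. Slc25a12 was at 35.6, 46.2 and 32.5 CPM in WT 1, 2 and 3 and at 31.95, 33.2 and 41.5 CPM in KO 1, 2 and 3, with overlapping groups (log2 -0.10, SE 0.15, adjusted p = 0.869 by edgeR). Slc25a13 had 4, 9 and 6 counts in WT 1, 2 and 3, against 3, 1 and 8 counts in KO 1, 2 and 3, too few to be tested. Slc25a12 thus exceeded Slc25a13 by 58.6 to 1 over all libraries. Their log2 ratio, Slc25a13 over Slc25a12, was -5.60 ± 0.40 in the WT-labelled and -6.26 ± 0.91 in the KO-labelled libraries (SD, n = 3; exact two-sided permutation p = 0.4). The citrate carrier Slc25a1 averaged 9.74 CPM (log2 0.08, adjusted p = 0.925), the glutamate carrier Slc25a22 2.93 CPM and the dicarboxylate carrier Slc25a10 1.37 CPM.

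Among the carriers of amino acids and acylcarnitine were the 2 genes whose KO-labelled libraries all lay above the WT-labelled ones, a pattern seen for 7.48% of tested genes in this direction. Slc25a20 (ENSMUSG00000032602, chromosome 9, 108662088 to 108684641, plus strand, mm10), the carnitine-acylcarnitine translocase that admits fatty acids for oxidation, was at 25.4, 30.25 and 30.6 CPM in WT 1, 2 and 3 and at 40.8, 40.0 and 33.5 CPM in KO 1, 2 and 3. KO 1 and KO 2 stood well above the WT-labelled libraries and KO 3 nearer to them. The means were 28.7 ± 2.91 and 38.1 ± 4.03 CPM (SD, n = 3), with a fitted fold of 1.32 by edgeR (log2 0.40, SE 0.13), and the interval ran from 1.095-fold to 1.60-fold. Slc25a20 had the smallest p of the family, 0.00671 before and 0.194 after adjustment by edgeR, and so did not pass. Its log2 fold change was between 0.30 and 0.49 in the 15 fits run, with an adjusted p of 0.122 to 0.527.

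Slc25a38 (ENSMUSG00000032519, chromosome 9, 120110374 to 120124504, plus strand, mm10), which imports glycine for the first step of haem synthesis, was at 10.7, 12.98 and 10.8 CPM in WT 1, 2 and 3 and at 14.6, 17.1 and 14.2 CPM in KO 1, 2 and 3. WT 2 and KO 2 were the highest of their groups, and the groups did not overlap. The means were 11.5 ± 1.30 and 15.3 ± 1.57 CPM (SD, n = 3). The fitted fold was again 1.32 (log2 0.40, SE 0.17), with a p of 0.0332 before and 0.380 after adjustment by edgeR. The branched-chain amino acid carrier Slc25a44 was more abundant and overlapped between the groups, at 52.4, 47.3 and 45.3 CPM in WT 1, 2 and 3 and at 45.96, 48.8 and 54.8 CPM in KO 1, 2 and 3 (log2 0.05, SE 0.11). That value was -0.06 with scaling to the total count. Slc25a29, a carrier of basic amino acids, was at 2.21, 2.35 and 4.85 CPM in WT 1, 2 and 3 and at 1.35, 2.94 and 1.79 CPM in KO 1, 2 and 3, where WT 3 set the difference (log2 -0.63, SE 0.46, adjusted p = 0.680; -0.18 without WT 3).

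Summed over its 6 genes this role group was at 91.6, 93.1 and 93.4 CPM in WT 1, 2 and 3 and at 105, 111 and 105 CPM in KO 1, 2 and 3. Slc25a20 and Slc25a38 made up most of this gap: of the 14.1 CPM between the group means they gave 9.37 and 3.78 CPM, and the other 4 genes together 0.96 CPM. The 4 tested members above 0 and the 1 below gave a median of 0.40, beside 0.01 for all tested genes, and 0 of 5 were called. The groups of libraries stayed apart with scaling to the total count, at 94.3 to 98.7 against 101 to 105 CPM. Sums of the cofactor and glutathione carriers also stayed apart under each scaling, with the KO-labelled libraries lower. They were at 120 to 129 against 114 to 117 CPM with TMM scaling and 122 to 133 against 111 to 112 CPM with total counts (WT against KO). The mitoferrins and the nucleotide and phosphate carriers did so under only 1 of these scalings. Mitoferrin sums were apart with TMM scaling (185 to 190 against 193 to 212 CPM, WT against KO). Those of nucleotide and phosphate carriers were apart with total counts, in the opposite direction (299 to 335 against 266 to 292 CPM). The neutrophil markers S100a8 and Retnlg and the plasma cell marker Jchain were higher in the same libraries, and the B cell marker Cd79b was lower. The part of these cells in the levels of Slc25a20 and Slc25a38 was not tested.

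**Figure D4:**
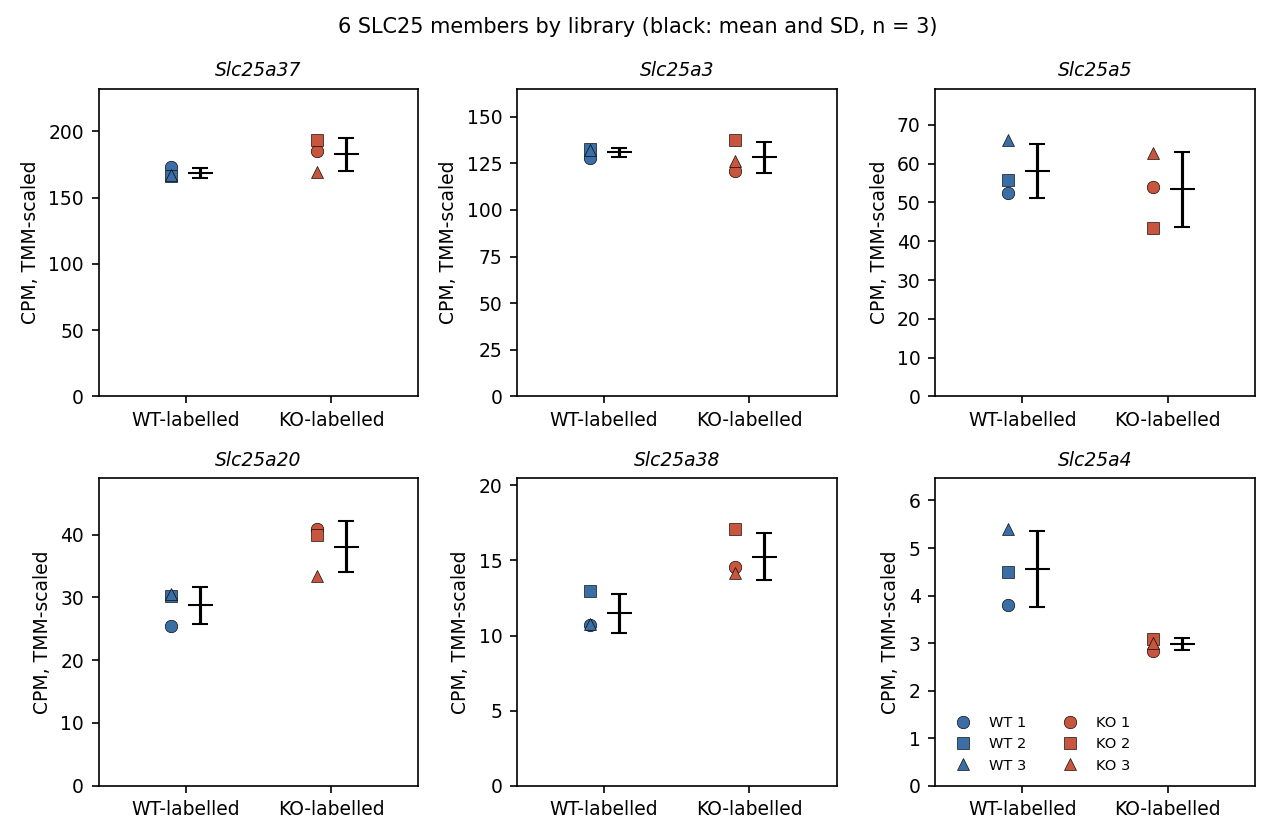
TMM-scaled CPM of 6 carrier genes in each library (points, by replicate), with the mean and SD of each labelled group (n = 3) in black; each axis starts at 0. Slc25a37, Slc25a3 and Slc25a5 overlap between the groups, Slc25a20 and Slc25a38 are higher in all 3 KO-labelled libraries, and Slc25a4 is lower in all 3, at about 3 CPM.

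Carriers of cofactors and glutathione held 12.2% of the family's level, and 0 of their 6 tested genes were called. Their sum was 129, 121 and 120 CPM in WT 1, 2 and 3, against 116, 117 and 114 CPM in KO 1, 2 and 3, so that the KO-labelled libraries were slightly lower throughout, as they were with scaling to the total count (122 to 133 against 111 to 112 CPM). The NAD carrier Slc25a51 was at 64.8, 58.2 and 60.6 CPM in WT 1, 2 and 3 and at 59.4, 54.3 and 55.9 CPM in KO 1, 2 and 3. KO 1 lay among the WT-labelled libraries, and the log2 fold change was -0.11 (SE 0.09, adjusted p = 0.711 by edgeR). The 3′ end of Slc25a51 shares 104 bases at 95.2% identity with Itgad, which had 34 to 178 counts per library, so the counts of Slc25a51 are uncertain to that extent. Itgad had 144, 178 and 167 counts in WT 1, 2 and 3 and 49, 34 and 102 counts in KO 1, 2 and 3, and was lower in the KO-labelled libraries (log2 -1.31, adjusted p = 0.0156 by edgeR), the direction in which Slc25a51 differed. Its part in the level of Slc25a51 was not tested. The role sum differed between the group means by -7.45 CPM (KO minus WT), of which Slc25a51 gave -4.68 CPM. Of the glutathione carriers, Slc25a39 was at 42.0 ± 2.84 and 41.1 ± 5.61 CPM (SD, n = 3) and its relative Slc25a40 at 2.54 ± 0.518 and 2.19 ± 0.521 CPM (SD, n = 3). A pseudogene nearly identical to the 3′ end of Slc25a40 had 0 counts. The peroxisomal carrier Slc25a17 and Slc25a16, linked to coenzyme A, averaged 7.02 and 4.02 CPM.

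Of the 9 carriers without a settled substrate, 3 were tested and 0 were called. Slc25a45 was the fifth most abundant gene of the family, at 74.95, 80.6 and 67.0 CPM in WT 1, 2 and 3 and at 76.8, 82.95 and 91.1 CPM in KO 1, 2 and 3. KO 3 was the highest and WT 3 the lowest library, while the others overlapped (log2 0.17, SE 0.10, adjusted p = 0.547 by edgeR). Slc25a46, which lies in the outer membrane and takes part in mitochondrial dynamics, was level between the groups at 17.9 ± 0.867 and 17.8 ± 2.07 CPM (SD, n = 3), and Slc25a53, the remaining tested gene, averaged 1.33 CPM (log2 -0.07, SE 0.59). The uncoupling-protein-like genes were scarce: Slc25a14 averaged 4.13 CPM (log2 0.14, SE 0.31), Slc25a27 0.868 CPM, and Slc25a30 had 1 count in KO 1.

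Carrier-family genes that bear other names gave a like picture. Ucp2, the uncoupling protein of leukocytes, was at 163, 173 and 119 CPM in WT 1, 2 and 3 and at 169, 169 and 179 CPM in KO 1, 2 and 3. Its mean of 162 CPM lay between those of Slc25a37 and Slc25a3. In WT 2 and KO 3 it stood above Slc25a37, and in WT 3 below Slc25a3. WT 3 stood below the other 5 libraries, and the groups overlap (log2 0.18, SE 0.12, adjusted p = 0.616 by edgeR). Its exons overlap those of Dnajb13 on the opposite strand, so its counts are uncertain. The outer-membrane relatives Mtch1 and Mtch2 averaged 64.0 and 29.2 CPM, Ucp3 0.571 CPM, and Ucp1, the protein of brown fat, was listed at 0.

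Other genes around the carriers were taken from 4 lists: other mitochondrial transporters, the carrier import pathway, shuttle and citrate export enzymes, and iron, haem and iron-sulphur cluster genes. In the first, edgeR called 0 of 17 tested genes and DESeq2 called 2, both higher, against 1.03% and 1.67% of all tested genes. Of the 17, 13 lay above 0 and the median was 0.09. Its most abundant gene, Tspo, an outer-membrane protein that binds cholesterol and porphyrins, was at 201, 208 and 179 CPM in WT 1, 2 and 3 and at 246, 266 and 235 CPM in KO 1, 2 and 3. The KO-labelled libraries were all higher (log2 0.35, SE 0.09), with an adjusted p of 0.0801 by edgeR and 0.0119 by DESeq2. Groups lay apart in this direction for 7.48% of all tested genes. Exons of Tspo overlap those of Mcat on the opposite strand, which leaves its counts uncertain. Sfxn5, a sideroflexin, named here because of its DESeq2 call, was at 118, 124 and 97.8 CPM in WT 1, 2 and 3 and at 148, 150 and 142.5 CPM in KO 1, 2 and 3, without overlap (log2 0.37, SE 0.09, adjusted p = 0.0825 by edgeR and 0.0218 by DESeq2). In the import list 0 of 15 were called by either tool (median -0.01). Timm10b, an intermembrane-space chaperone subunit, was its most abundant gene at 143 CPM, and Timm13, a subunit of another such chaperone, had the smallest p (log2 -0.56, SE 0.16, adjusted p = 0.154).

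The enzymes of the malate-aspartate and glycerol phosphate shuttles and of citrate export held the 1 gene of these lists called by edgeR, and DESeq2 called 2 of them, Gpd1 lower and Mdh2 higher. Gpd1, the cytosolic glycerol-3-phosphate dehydrogenase, was at 6.99, 9.61 and 9.16 CPM in WT 1, 2 and 3 and at 4.04, 4.41 and 3.68 CPM in KO 1, 2 and 3. It was 2.13-fold lower in the KO-labelled libraries, which lay below all WT-labelled ones (log2 -1.09, SE 0.24, adjusted p = 0.0474 by edgeR). Groups lay apart in this direction for 9.32% of all tested genes, and in the opposite direction for 7.48%. The call ended with limma-voom (adjusted p = 0.0757), with a replicate block (0.0924) and without any 1 of the libraries: without WT 1, 2 or 3 the adjusted p was 0.0603, 0.245 and 0.138, and without KO 1, 2 or 3 it was 0.112, 0.0841 and 0.134. Macrophage and platelet markers were lower in the same libraries, as were Ccr3 and Mcpt8 but not Siglecf or Prg2 of the eosinophil and basophil list. The part of these cells in the level of Gpd1 was not tested. Exons of Gpd1 overlap an antisense gene, so its counts are uncertain. Mdh2, the mitochondrial malate dehydrogenase and the most abundant enzyme of the list, was at 320, 310 and 285 CPM in WT 1, 2 and 3 and at 404, 364 and 352 CPM in KO 1, 2 and 3, without overlap (log2 0.29, SE 0.08). Its adjusted p was 0.138 by edgeR and 0.0303 by DESeq2. With no filter on low counts, edgeR called Mdh2 (adjusted p = 0.0442) and, from the list of other transporters, Tspo (0.0114) and Sfxn5 (0.00946). By edgeR the list as a whole had 1 of 10 tested genes lower and 0 higher, with a median of 0.02. Over all tested genes edgeR called 1.03% and DESeq2 1.67%.

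The iron, haem and iron-sulphur cluster genes, which use what the mitoferrins and Slc25a38 bring in, had 0 of 15 tested genes called by either tool and a median of -0.08. Alas1, the first enzyme of haem synthesis outside red cells, was the most abundant at 64.5 ± 3.43 CPM for WT and 68.9 ± 3.00 CPM for KO (SD, n = 3; log2 0.10, adjusted p = 0.767 by edgeR).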

How the data were processed

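The authors deposited whole-number read counts per Ensembl gene for 6 libraries, without scaling. The submitters' processing notes name RSEM 1.2.3, DESeq2 and mm10 but not their role. Not given in the sources used here are the aligner, annotation release and strand setting. As RSEM apportions multiply mapped reads, near-identical genes can share counts. Symbols, biotypes, positions and exon overlaps came from GENCODE vM21 of GRCm38, the assembly mm10 names; 51596 of 51789 identifiers had a name. The 3′-most 500 bases of member transcripts were searched against all transcripts for copies of at least 75 bases at 95% identity. 1 count was worth 0.103 to 0.142 CPM. Replicates differed by more than sampling noise (chi-square per degree of freedom 4.12 to 6.79).

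The test was edgeR's quasi-likelihood test (version 4.0.16, R 4.3.3; glmQLFit, glmQLFTest, group as the only term) on the counts, with TMM factors, filterByExpr (minimum count 10, minimum total 15) and Benjamini-Hochberg adjustment over 10397 genes at 0.05. CPM values are TMM-scaled unless stated. SE was the log2 fold change divided by the square root of F, and 95% intervals used the t quantile of its degrees of freedom. Ratios of 2 genes added 0.5 counts to each on the log2 scale. The edgeR fit with these settings was tested on simulated counts that had the same dispersion for every gene. The other fits were not tested in this way.

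The members and lists were chosen with earlier results of these data known. Values by library are given for the 8 most abundant members, the 8 with the smallest p, any called member and 3 pairs of related carriers; for the other lists, the most abundant gene, that with the smallest p and any called gene are named. A few listed genes are counted with their lists but not reported here by name. Of the listed genes, Slc25a52 and Fdx2 had no row under that name. Alternatives were DESeq2 1.42.0, limma-voom (limma 3.58.1), RLE, upper-quartile and total-count scaling, no low-count filter or a stricter one (5 CPM in 3 libraries), a replicate block, leaving out each library, other counts added to ratios and other denominators of the family share.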

Additional observations from a re-analysis of the deposited data

How the results depend on the processing

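None of the fits run called a member, and the smallest adjusted p of a member was between 0.122 and 0.527, at Slc25a20 in each fit except that with total-count scaling, where it was 0.306 at Slc25a24. Over all genes, 107 calls became 174 with DESeq2, 162 with total counts only, 287 with no filter and 49 to 97 without 1 library. Total-count scaling moved the median of all genes to -0.10 and that of the members to -0.13; without 1 library the members' median ran from -0.03 to 0.03. Values near 0 turned sign: with total counts, Slc25a11 (-0.058) and Slc25a44 (-0.056); without 1 library, Slc25a12 (-0.233 to 0.069), Slc25a11 (-0.021 to 0.116), Slc25a3 (-0.085 to 0.009), Slc25a5 (-0.255 to 0.006), Slc25a44 (-0.032 to 0.109) and the Slc25a37 to Slc25a28 log2 ratio (difference of -0.212 to 0.0736). The cause was not tested. The family share of counts was lower in the KO-labelled libraries without S100a8 and S100a9 in the total, and without each library (-0.00589 to -0.0047 percentage points). As a sum of TMM-scaled CPM the direction turned, to 17.8 CPM higher in the KO-labelled libraries (exact two-sided permutation p = 0.4). The Slc25a5 to Slc25a4 and Slc25a13 to Slc25a12 differences kept their sign (0.341 to 0.625 and -1.06 to -0.168 without 1 library). With 2 counts added to each gene, the Slc25a5 to Slc25a4 difference was 0.425. Its exact two-sided permutation p was then 0.2, against 0.1 with 0.5 counts added, so the full separation of the groups was lost. No pairing by replicate number was seen: deviations of same-numbered libraries correlated at -0.04, 0.02 and -0.10. The highest correlation was that of WT 3 with KO 1 (0.175). With deviations taken from means of 3 libraries, this check cannot show that the libraries were unpaired. With the replicate block 92 genes and 0 members were called. Depth limits the 17 untested members, whose means were at most 1.06 CPM.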

Other observations

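Some carriers lie in pairs next to each other in the genome (mm10), and in each pair 1 gene held nearly all or most of the counts. On chromosome 3, Slc25a24 averaged 80.4 CPM while Slc25a54, 6462 bases away, had no count. On the X chromosome, Slc25a5 averaged 55.8 CPM and Slc25a43, 18449 bases away, 0.318 CPM. On chromosome 17, Slc25a23 averaged 2.19 CPM and Slc25a41, 2057 bases away, had no count. On chromosome 12, Slc25a29 averaged 2.58 CPM and Slc25a47, 163 bases away, 0.393 CPM. The 47 genes otherwise lie scattered over 19 chromosomes.

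A pair of scarce carriers differed widely between libraries of the same group. Slc25a32, a carrier linked to folate and FAD, had 1, 7 and 22 counts in WT 1, 2 and 3 and 4, 0 and 18 counts in KO 1, 2 and 3. Scaled to the total count, WT 1 had an exact binomial 95% interval of 0.00321 to 0.706 CPM and WT 3 one of 1.96 to 4.75 CPM, and these do not overlap. Slc25a23, a calcium-regulated ATP-Mg/phosphate carrier, had 22, 14 and 12 counts in WT 1, 2 and 3 and 36, 15 and 3 counts in KO 1, 2 and 3. For KO 1 the interval was 3.27 to 6.46 CPM, and for KO 3 it was 0.0675 to 0.957 CPM. The intervals cover counting error only.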
